A study of Mus musculus with 12 samples.

Results

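The keratin genes of the mouse were followed in RNA from the proximal colonic mucosa of 12 mice, 6 of them APC Min/+ and 6 WT. Members were chosen by name. The Ensembl identifiers of the count tables were given symbols from the GENCODE M21 annotation, and every protein-coding gene whose symbol is Krt followed by a number was kept, while the keratin-associated protein genes (Krtap) were left out. This gave 53 of the 38924 genes in the tables, of which 50 had a count in at least 1 mouse. The mice were female, 6 weeks old and of the strain C57BL/6. APC Min/+ mice carry 1 truncated copy of *Apc* in every cell of the body, the WT mice carry none, and no agent was given to either group. According to the study's methods the genotypes were housed in separate cages, so cage and genotype cannot be told apart. Each shipment of animals held both genotypes, but the labels do not give the shipment of a mouse, and its part in the values was not tested.

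Keratins are the intermediate filament proteins of epithelia. A filament is built from pairs of 1 type I (acidic) and 1 type II (basic) keratin, so that a cell needs at least 1 of each. Simple epithelia of a single cell layer, such as the lining of the colon, use Krt8 and Krt7 as type II partners and Krt18, Krt19 and Krt20 as type I partners, with Krt20 typical of the differentiated surface cells. Stratified epithelia such as the epidermis use other pairs, among them Krt5 with Krt14 in basal cells and Krt1 with Krt10 above them, and a further set of keratins is made in the root sheath and shaft of the hair.

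The 53 genes lie in 2 clusters, with the type I genes on chromosome 11 and the type II genes on chromosome 15 (GRCm38). *Krt18* is the exception, a type I gene that sits at the end of the type II cluster. *Krt8* (chromosome 15, 101996698 to 102004482, reverse strand) and *Krt18* (chromosome 15, 102028180 to 102032027, forward strand) are separated by 23698 bp with no other keratin between them. On chromosome 11, *Krt20* (99428403 to 99438150, reverse strand) is followed by *Krt12*, a keratin of the cornea (99415666 to 99422259, reverse strand), at a distance of 6144 bp. *Krt19* (100140810 to 100148665, reverse strand) lies farther along the same cluster, and *Krt7* (101411043 to 101430313, forward strand) lies near the start of the cluster on chromosome 15.

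Promoters are shown for both neighbouring pairs, because the values below turn on them. Each sequence runs from 250 bases before to 50 bases after the RefSeq start of the gene, 5′ to 3′ on the strand of the gene, in the GRCm38.p6 build. Capitals mark matches of 2 motifs, each searched on both strands. The first is TATAAA, the core promoter box that places the start of transcription. The second is TTTATG, the core letters bound by Cdx factors, which set intestinal identity. The 4 regions are chr15:102004293-102004592 (reverse strand) for *Krt8*, chr15:102027966-102028265 (forward strand) for *Krt18*, chr11:99438104-99438403 (reverse strand) for *Krt20* and chr11:99422210-99422509 (reverse strand) for *Krt12*.
Krt8: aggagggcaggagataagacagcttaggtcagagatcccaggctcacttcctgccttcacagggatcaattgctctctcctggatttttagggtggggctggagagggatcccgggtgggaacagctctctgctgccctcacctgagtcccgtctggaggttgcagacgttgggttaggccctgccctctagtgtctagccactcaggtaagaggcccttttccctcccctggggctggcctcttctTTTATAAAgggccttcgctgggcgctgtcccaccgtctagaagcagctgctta
Krt18: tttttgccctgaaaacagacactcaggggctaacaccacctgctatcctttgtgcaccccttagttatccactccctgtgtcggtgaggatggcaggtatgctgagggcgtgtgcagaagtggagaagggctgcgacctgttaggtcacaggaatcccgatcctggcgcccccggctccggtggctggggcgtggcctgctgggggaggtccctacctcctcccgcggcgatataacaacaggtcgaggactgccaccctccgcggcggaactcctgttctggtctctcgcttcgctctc
Krt20: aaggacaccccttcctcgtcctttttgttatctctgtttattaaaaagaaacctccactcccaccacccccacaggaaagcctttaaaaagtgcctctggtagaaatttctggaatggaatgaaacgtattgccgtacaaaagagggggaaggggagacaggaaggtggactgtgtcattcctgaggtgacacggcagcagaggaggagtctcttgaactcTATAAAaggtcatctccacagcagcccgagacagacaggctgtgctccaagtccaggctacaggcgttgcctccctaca
Krt12: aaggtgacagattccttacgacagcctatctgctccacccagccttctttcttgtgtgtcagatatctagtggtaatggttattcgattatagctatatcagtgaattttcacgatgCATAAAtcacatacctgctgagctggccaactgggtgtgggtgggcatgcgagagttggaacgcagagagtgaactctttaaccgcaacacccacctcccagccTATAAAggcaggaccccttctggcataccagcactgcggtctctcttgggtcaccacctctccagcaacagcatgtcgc

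In *Krt20* and *Krt12* the letters TATAAA began 29 bases before the start. In *Krt8* they began 1 base before the annotated start and overlapped the reverse form, and the window of *Krt18* held neither motif. *Krt12* also held the reverse form of TTTATG, beginning 133 bases before the start. Of the 53 keratin genes, 36 had an entry in the promoter table, with 37 promoters. TATAAA was found on either strand in 19 of these 37 promoters (51.4%) and in 13.6% of the 32851 mouse promoters of the same length in the table. TTTATG was found in 16 of the 37 (43.2%) and in 11.9% of the 32851. These are matches of letters and no evidence of binding.

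The total count on genes lay between 50313805 and 197914821 per mouse, so that 3 counts correspond to between 0.0151 and 0.0560 CPM (counts scaled to library size, with TMM factors, as are all CPM values below). Both genotypes expressed the general epithelial marker *Epcam*, at 1441 ± 98.5 CPM in the APC Min/+ group and 1427 ± 126.3 CPM in the WT group (SD, n = 6 each), and the smooth muscle gene *Myh11*, at 1928 ± 302.5 and 1954 ± 360.5 CPM, so the samples held muscle as well as mucosa. The APC Min/+ mice M10_2 and M13_1 stood apart from the other 10 mice in genes that mark position along the gut. *Hoxb13*, a gene of the hindmost gut, was counted at 377.7 and 274.7 CPM in these mice while the highest value elsewhere was 0.744 CPM. *Hoxb6* was counted at 1.57 and 3.18 CPM against 55.5 to 115.7 CPM in the other 10, and *Car1*, a carbonic anhydrase abundant in proximal colon, at 965.5 and 2539 CPM against 14621 to 32560. Their tissue label is the same as that of the other mice. The log2 fold changes between genotypes are therefore given below with all mice and without these 2.

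The keratin RNA of the colon was almost entirely that of the simple keratins. Krt7, Krt8, Krt18, Krt19 and Krt20 together made up 99.66% ± 0.0804 of the summed keratin CPM in the APC Min/+ group and 99.66% ± 0.0996 in the WT group (SD, n = 6 each), and the share was between 99.50% and 99.77% in all 12 mice. The summed CPM of all keratins was 5676 to 8182 in the APC Min/+ group and 5417 to 10361 in the WT group. By mean CPM, *Krt8* ranked 13, *Krt19* 27 and *Krt20* 43 among the 28449 genes with a count, while *Krt18* ranked 640 and *Krt7* 1486. By mean level per gene length (RPKM, explained below) these genes ranked 17, 33, 47, 288 and 3132 in the same order.

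**Figure D1:**
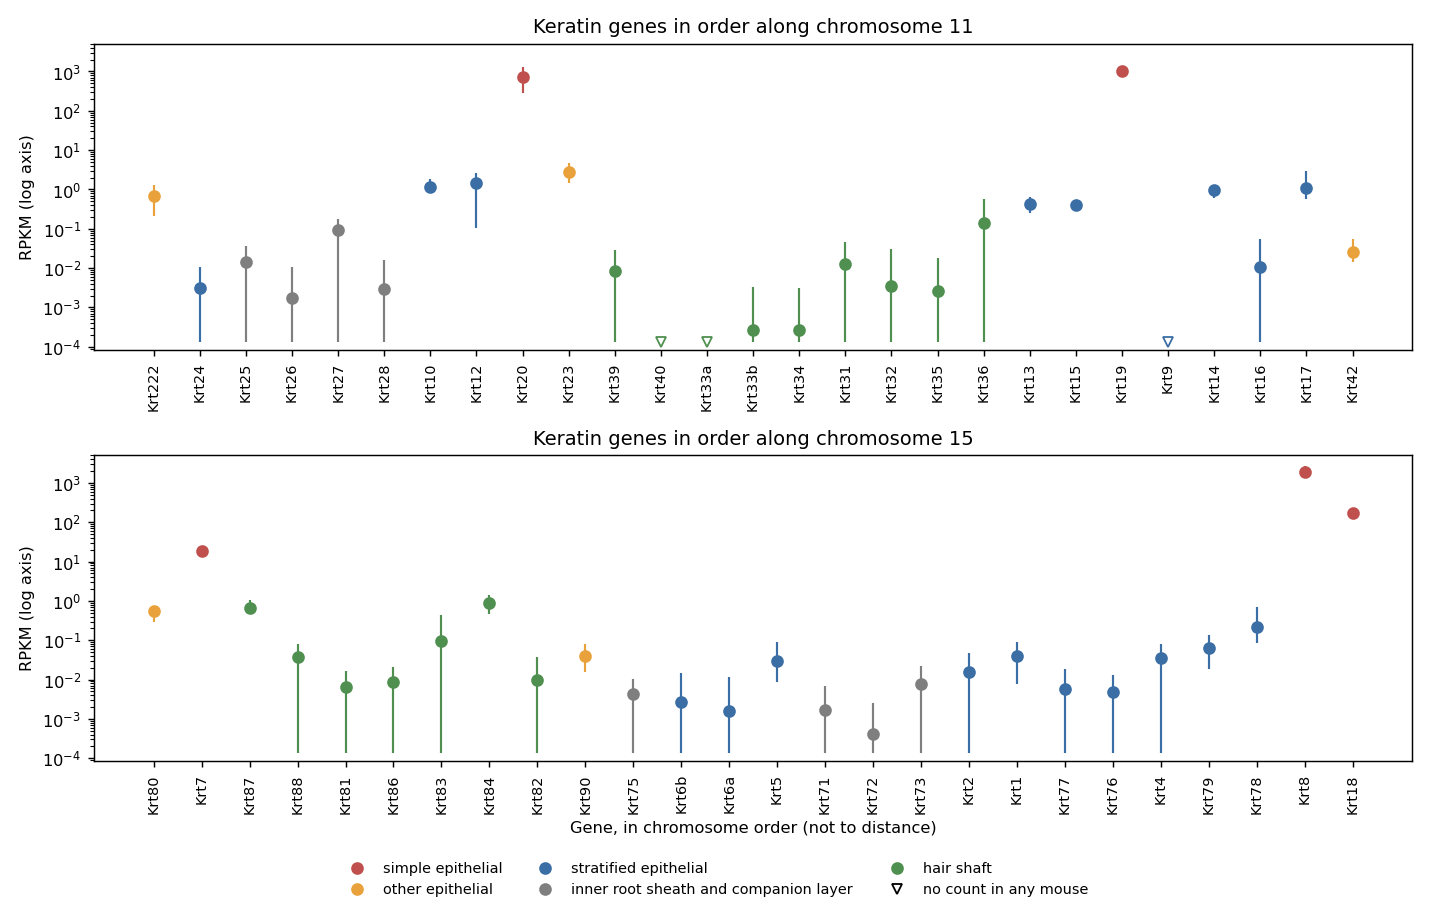
Level of each of the 53 keratin genes in RPKM (log axis), in gene order along chromosomes 11 and 15; points are means of 12 mice, lines run from the lowest to the highest mouse (to the bottom of the axis where a mouse had no count), and open triangles are genes with no count. The simple keratins Krt8, Krt19, Krt20, Krt18 and Krt7 stand above all others, from 18.99 to 1854 RPKM, and the next gene, Krt23, has 2.84 RPKM.

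Of the 5 simple, 5 other epithelial, 19 stratified, 8 inner root sheath and companion layer and 16 hair shaft keratins, a mean of at least 1 CPM in either genotype was reached by 5, 3, 4, 0 and 2 genes, respectively. The stratified keratins summed to 12.1 ± 2.36 CPM in the APC Min/+ group and 10.3 ± 1.79 CPM in the WT group (SD, n = 6 each). The hair shaft keratins summed to 3.88 ± 1.02 and 4.09 ± 0.451 CPM, and the keratins of the inner root sheath and companion layer to 0.233 ± 0.144 and 0.212 ± 0.100 CPM. Outside the simple class, keratins were thus found at a few CPM or below. *Krt9*, *Krt33a* and *Krt40* had no count in any mouse, which at these depths allows a level of up to 0.0151 to 0.0560 CPM.

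Levels of different genes can be compared only per length, in RPKM (counts divided by the gene length in the tables). Over the 12 mice *Krt8* had 1854 ± 345.9 RPKM, *Krt19* 1051 ± 158.8, *Krt20* 729.7 ± 294.9, *Krt18* 177.0 ± 30.2 and *Krt7* 18.99 ± 2.80 RPKM (SD, n = 12). The ranges of *Krt8* (1333 to 2642 RPKM) and *Krt19* (823.0 to 1396 RPKM) overlapped between mice, and so did those of *Krt19* and *Krt20* (277.0 to 1331 RPKM). Within each mouse the order of these 3 genes was the same in all 12. *Krt18* (142.7 to 235.5 RPKM) lay below every value of *Krt20* and above every value of *Krt7* (12.8 to 22.9 RPKM). The RPKM of *Krt7* is understated if its main transcript is shorter than the listed length, since the tables give 7055 bp for the gene and its longest annotated coding transcript has 4094 bp.

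*Krt8* supplied nearly all of the type II RNA, with 45.7% to 52.7% of the simple keratin RPKM per mouse, and *Krt7* supplied 0.354% to 0.775%. The type I RNA was divided among 3 genes. *Krt19* supplied 25.1% to 32.9%, *Krt20* 8.52% to 23.9% and *Krt18*, the best known partner of Krt8, 3.23% to 7.69%. The RPKM of *Krt8* was between 5.95 and 14.7 times that of *Krt18*. Summed over genes, type I and type II RNA were nearly equal, with a ratio of 1.01 ± 0.0853 in the APC Min/+ group and 1.08 ± 0.0403 in the WT group (SD, n = 6 each). The 2 lowest ratios, 0.884 and 0.924, were those of M13_1 and M10_2, and the other 10 mice lay between 1.03 and 1.15. With the longest coding transcript as gene length the mean ratio over 12 mice was 1.23 instead of 1.05. *Krt8* shares 98.6% of its bases over 941 bp with *Krt8-ps*, which is not among the genes counted. The effect of this near copy on the *Krt8* counts and on these ratios was not tested.

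**Figure D2:**
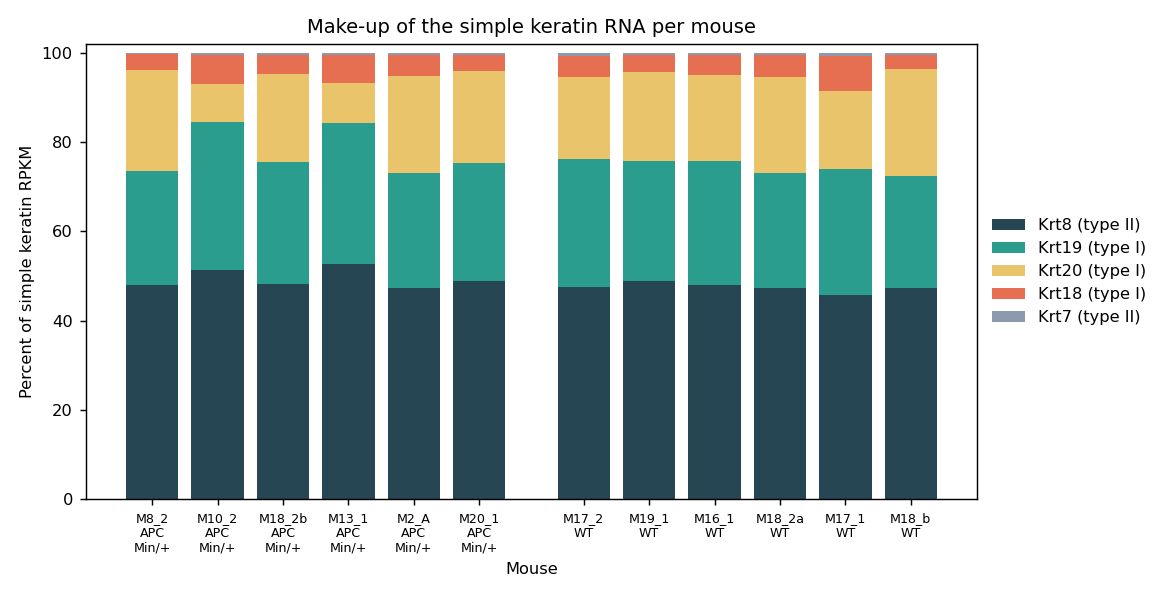
Share of each simple keratin in the summed simple keratin RPKM (percent) in each of the 12 mice. Krt8 takes 45.7% to 52.7% in every mouse, and the Krt20 segment is 8.52% in M10_2 and 8.96% in M13_1 against 17.5% to 23.9% in the other 10.

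Next, the question was whether the keratins differed between the genotypes before neoplasia. The test covered 20311 genes that reached 10 counts in 3 or more mice, and 26 of them were keratins, namely all 5 simple, 4 other epithelial, 12 stratified, 1 inner root sheath and 4 hair shaft keratins. None of the 26 was called at a 2-fold change and an FDR under 0.05 (quasi-likelihood test of edgeR, Benjamini-Hochberg adjusted), where 0% of all genes tested did (0 of 20311, lowest FDR 0.908). The study, which also used edgeR with these thresholds, did report genes that differed between the genotypes, and its list names no keratin. The reason for this difference was not tested. An unadjusted p under 0.05 was found for 3 of the 26 keratins and for 5.27% of all genes tested. DESeq2 called 27 genes (0.133%) and edgeR's exact test 12 (0.0591%), with 0 keratins in either list. At an unadjusted p under 0.05 they had 4 and 3 keratins, respectively, where 6.48% and 5.33% of all genes tested had such a p. In 0 of the 26 keratins did all 6 APC Min/+ values lie above or below all 6 WT values, against 0.118% of all genes tested. The log2 fold change (APC Min/+ minus WT, below with its standard error, SE) was above 0 for 14 keratins and below 0 for 12, with a median of 0.06 over the keratins and -0.01 over all genes tested.

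In the simple keratins the genotypes differed by less than the spread between mice. *Krt8* had 2938, 3444 and 3816 CPM as lowest, median and highest value in APC Min/+ mice and 2405, 3097 and 4769 CPM in WT mice. The WT mice alone spanned the whole range of the APC Min/+ mice. The log2 fold change was 0.07 (SE 0.16, FDR = 0.937 in edgeR's quasi-likelihood test), and 0.14 (SE 0.18) without M10_2 and M13_1. *Krt19* had 1819, 2044 and 2192 CPM in APC Min/+ mice and 1527, 1756 and 2589 CPM in WT mice, and its log2 fold change was 0.09 (SE 0.14, FDR = 0.921 in the same edgeR test) and 0.09 (SE 0.15) without M10_2 and M13_1. Its values overlapped throughout, again with the highest and the lowest mouse among the WT.

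*Krt18* had 210.7, 242.6 and 329.7 CPM as lowest, median and highest value in APC Min/+ mice and 199.7, 241.9 and 313.7 CPM in WT mice. Its highest value was that of M10_2, and the medians of the genotypes were nearly the same. The log2 fold change was 0.05 (SE 0.14, FDR = 0.951 in edgeR's quasi-likelihood test) and -0.09 (SE 0.14) without both mice. *Krt7*, a keratin of ducts and of the urothelium, had 90.2, 131.6 and 146.7 CPM in APC Min/+ mice and 128.8, 138.7 and 161.7 CPM in WT mice. M13_1 was lowest, and the log2 fold change was -0.20 (SE 0.12, FDR = 0.908 in the edgeR test) with all mice and -0.11 (SE 0.11) without M10_2 and M13_1. *Krt7* ends 725 bp from *Krt87* on the other strand.

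*Krt20* showed the widest spread between mice among the simple keratins. It had 533.8, 1548 and 1925 CPM as lowest, median and highest value in APC Min/+ mice and 984.6, 1419 and 2564 CPM in WT mice. The 2 lowest of all 12 values were 533.8 CPM in M13_1 and 588.9 CPM in M10_2, which is 2.80- and 2.54-fold below the WT mean of 1497 ± 562.7 CPM (SD, n = 6), and all other mice had at least 984.6 CPM. The log2 fold change was -0.19 (SE 0.34, FDR = 0.925 in edgeR's quasi-likelihood test) with all mice and 0.18 (SE 0.24) without these mice, so its sign rested on them. It also turned to 0.05 without the WT mouse M18_b. As a share of the type I simple keratin RPKM, *Krt20* made up 17.7% in M10_2 and 19.11% in M13_1 and 32.8% to 45.8% in the other 10 mice. In these bulk samples fewer cells of a type cannot be told apart from less RNA per cell.

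**Figure D3:**
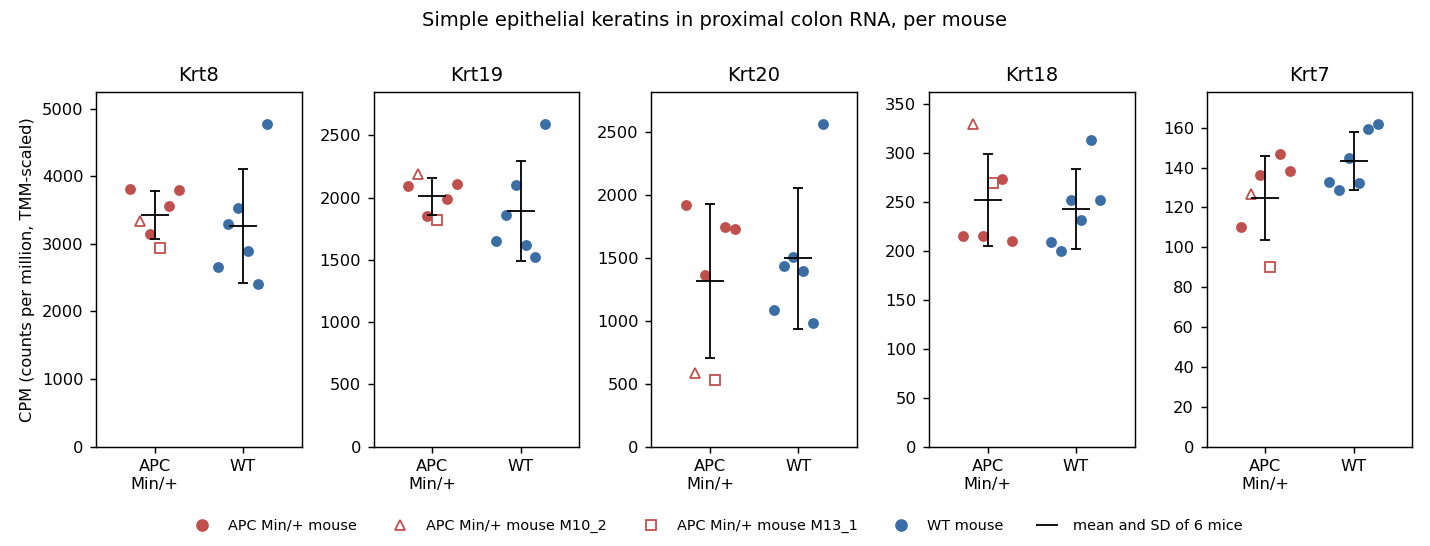
CPM of the 5 simple keratins in each mouse by genotype (linear axes from 0); bars are the mean and SD of 6 mice and open symbols are the APC Min/+ mice M10_2 and M13_1. Genotypes overlap for every gene, and in Krt20 the open symbols lie at 588.9 and 533.8 CPM, below the 984.6 CPM of the next lowest mouse.

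To put the spread in scale, the SD of log2(CPM + 0.01) over the 12 mice was compared with that of all 20311 genes tested, whose median was 0.36. The SD was 0.21 for *Krt19*, 0.23 for *Krt7*, 0.24 for *Krt18* and 0.26 for *Krt8*, which is at percentiles 22.9, 26.5, 27.9 and 33.1 of all genes tested. These 4 genes thus varied less between mice than most genes tested. The genes tested include many of low count, and genes of a level like that of the simple keratins were not compared apart. *Krt20* had an SD of 0.67, at percentile 81.4, and 0.40 over the 10 mice without M10_2 and M13_1. The keratins with the widest spread among those named by the rule were *Krt83* (1.86, percentile 98.4) and *Krt36* (1.70, percentile 98.0), both of them keratins of hard epithelia with few counts.

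Since the partners of a filament are needed together, *Krt8* was compared across mice with each type I partner on log2 CPM. These were 3 relations, with p-values adjusted over them. No other gene was compared with *Krt8*, so whether a relation is particular to filament partners was not tested. With *Krt19*, Pearson's r over 12 mice was 0.95 (permutation p = 3e-05, adjusted p = 9e-05) and Spearman's rho 0.89 (permutation p = 0.00018, adjusted p = 0.00054). Without the 2 mice farthest from the median of *Krt8*, the WT mice M17_1 and M18_b, r was 0.87. Within genotypes r was 0.98 in the 6 WT mice (exact permutation test, adjusted p = 0.00417) and 0.74 in the 6 APC Min/+ mice (exact permutation test, adjusted p = 0.162). *Krt8* and *Krt19* thus varied together over the WT mice, and the relation did not pass in the APC Min/+ mice alone.

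With *Krt20*, M10_2 and M13_1 lay apart from the other mice. Over those other 10 mice r was 0.98 (permutation p = 1e-05, the smallest the resampling can give, adjusted p = 1.5e-05) and rho 0.98 (permutation p = 5e-05, adjusted p = 0.00015), and r was 0.93 without M17_1 and M18_b as well. Over all 12 mice r was 0.64 (permutation p = 0.0265, adjusted p = 0.0398) and rho 0.81 (permutation p = 0.00221, adjusted p = 0.00332), and r without M17_1 and M18_b was 0.52 (permutation p = 0.129). In M10_2 and M13_1 *Krt20* was therefore low while *Krt8* was not. The RPKM of *Krt20* was 0.259 and 0.283 times that of *Krt19* in these mice and 0.621 to 0.953 times in the other 10.

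With *Krt18*, the gene next to *Krt8*, no relation was found. Pearson's r over 12 mice was -0.18 (permutation p = 0.578, adjusted p = 0.578), rho was -0.08 (permutation p = 0.818, adjusted p = 0.818), and r was 0.04 without M17_1 and M18_b. The WT mouse M17_1 had the lowest *Krt8*, at 2405 CPM, and the highest *Krt18* among the WT mice, at 313.7 CPM. M18_b had the highest *Krt8* of all mice, at 4769 CPM, with 251.8 CPM of *Krt18*. All these genes were measured in the same libraries and scaled by the same factors.

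The basal and suprabasal type I keratins Krt14 and Krt10 were far above their usual partners, which were counted in every mouse at a low level. *Krt14*, the type I keratin of basal cells, had 1.06, 1.70 and 2.12 CPM as lowest, median and highest value in APC Min/+ mice and 1.125, 1.69 and 2.24 CPM in WT mice. *Krt5*, its type II partner, had 0.0255, 0.0624 and 0.199 CPM and 0.0192, 0.0454 and 0.111 CPM, from 2 to 18 counts per mouse. The RPKM of *Krt14* was 13.3 to 72.9 times that of *Krt5*. *Trp63*, the regulator of basal cells of stratified epithelia, was at 0.117 ± 0.0506 CPM in the APC Min/+ group and 0.142 ± 0.0997 CPM in the WT group (SD, n = 6 each). *Krt10* had 1.98, 2.66 and 3.75 CPM in APC Min/+ mice and 1.77, 2.14 and 2.66 CPM in WT mice, and its RPKM was 9.34 to 168.7 times that of its partner *Krt1*. Neither *Krt14* (log2 fold change -0.05, SE 0.22) nor *Krt10* (0.34, SE 0.18) passed the test between genotypes (FDR = 0.972 and 0.908 in edgeR's quasi-likelihood test). Without M10_2 and M13_1 these log2 fold changes were -0.23 (SE 0.24) and 0.11 (SE 0.17). A gene antisense to *Krt10* overlaps it by 146 bp.

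Other stratified keratins were rarer. *Krt4*, a keratin of the oral and oesophageal lining, lay between 0 and 0.168 CPM over all mice, *Krt2*, of the upper epidermis, between 0 and 0.125 CPM, and *Krt79* between 0.0384 and 0.284 CPM. Their log2 fold changes were -0.37 (SE 0.83), -0.83 (SE 0.82) and 0.60 (SE 0.45), and none passed the test. Without M10_2 and M13_1 they were -0.20 (SE 0.77), -0.44 (SE 0.84) and 0.67 (SE 0.52). The values of these genes come from at most 30 counts per mouse.

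The 3 keratins with an unadjusted p under 0.05 were low genes in which M10_2 and M13_1 were the 2 highest mice. *Krt36*, a type I keratin of hair, nail and tongue, had 0.0602, 0.166 and 0.972 CPM as lowest, median and highest value in APC Min/+ mice and 0, 0.109 and 0.154 CPM in WT mice. M13_1 and M10_2 had 0.972 and 0.692 CPM (88 and 137 counts), which is 10.5- and 7.46-fold above the WT mean, and the other 10 mice had at most 0.189 CPM. The log2 fold change was 1.94 (SE 0.75, unadjusted p = 0.0231, FDR = 0.908 in edgeR's quasi-likelihood test) with all mice and 0.45 (SE 0.62, unadjusted p = 0.475) without M10_2 and M13_1.

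*Krt83*, a type II hair keratin, had 0, 0.111 and 0.793 CPM in APC Min/+ mice and 0.0104, 0.0677 and 0.147 CPM in WT mice. M10_2 and M13_1 had 0.793 and 0.674 CPM (157 and 61 counts) and the other 10 mice at most 0.160 CPM. Its log2 fold change was 2.14 (SE 0.93, unadjusted p = 0.0381, FDR = 0.908 in the edgeR test) with all mice and 0.05 (SE 0.76) without both. *Krt83* shares 95.1% of its bases over 1383 bp with *Krt81*, so reads may be split between them, and *Krt81* had at most 6 counts in any mouse. It also shares 95.45% over 571 bp with *Krt87*, which had 55 to 383 counts per mouse, the most in M10_2. The effect of these near copies on the *Krt83* counts was not tested. *Krt17*, a type I keratin induced in wounded and proliferating epithelia, had 0.943, 1.53 and 4.69 CPM in APC Min/+ mice and 0.887, 1.07 and 1.74 CPM in WT mice. M10_2 had 4.69 and M13_1 3.78 CPM, 4.07- and 3.28-fold above the WT mean. Its log2 fold change was 0.98 (SE 0.39, unadjusted p = 0.0244, FDR = 0.908 in the edgeR test) with all mice and 0.17 (SE 0.23) without both. The unadjusted p of all 3 genes was over 0.05 whenever M10_2 or M13_1 was left out alone, and over the 12 leave-one-out fits it stayed under 0.05 in 10 fits for *Krt36*, 10 for *Krt17* and 5 for *Krt83*.

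Further keratins followed the same mice in either direction. Over the 26 keratins tested, M10_2 and M13_1 were the 2 highest mice in 5 (*Krt10*, *Krt17*, *Krt36*, *Krt78* and *Krt83*). They were the 2 lowest, alone or tied, in 5 (*Krt12*, *Krt20*, *Krt27*, *Krt90* and *Krt222*). The tie is in *Krt27*, which had no count in WT mouse M17_2 either. Each count is 19.2% of the keratins tested, where 11.8% of all genes tested had these mice as the 2 highest and 12.3% as the 2 lowest. Ties were counted in the same way over all genes tested. *Krt78*, of stratified epithelia, had 2.34 CPM in M13_1 and 1.73 CPM in M10_2 and at most 1.08 CPM in the other mice. Its log2 fold change was 0.91 (SE 0.51) with all mice and -0.24 (SE 0.33) without them.

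*Krt12* was at 0.192 and 0.607 CPM in M10_2 and M13_1, respectively (38 and 55 counts), 15.4- and 4.86-fold below the WT mean of 2.95 ± 1.32 CPM (SD, n = 6), and at 1.46 to 4.88 CPM in the other 10 mice. It was low in the same mice as its neighbour *Krt20*. The 2 genes were compared with each other after the data were seen. Over all 12 mice r was 0.82 and rho 0.71. These values include M10_2 and M13_1, in which both genes were low, so they are a description and no test. Over the other 10 mice the relation did not pass, with r = 0.45 (permutation p = 0.195, adjusted p = 0.260 over 4 relations). There rho was 0.50 (permutation p = 0.142, adjusted p = 0.190), and r was 0.22 without M17_1 and M18_b as well. *Krt12* overlaps an antisense gene, *A830036E02Rik*, within its exons, and that gene had at most 0.104 CPM. *Krt222*, a keratin-related gene and the first by position in the cluster on chromosome 11, had 0.899 and 0.707 CPM in M10_2 and M13_1 and 1.74 to 4.26 CPM in the other 10 mice. Its log2 fold change of -0.46 (SE 0.34) moved to -0.09 (SE 0.24) without both. *Krt27*, of the inner root sheath, and *Krt90* were named here after their values were seen. *Krt27* had no count in M10_2, M13_1 and the WT mouse M17_2 and up to 0.273 CPM elsewhere, and *Krt90* had 0.0403 and 0.0442 CPM in M10_2 and M13_1 and 0.0673 to 0.204 CPM elsewhere.

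**Figure D4:**
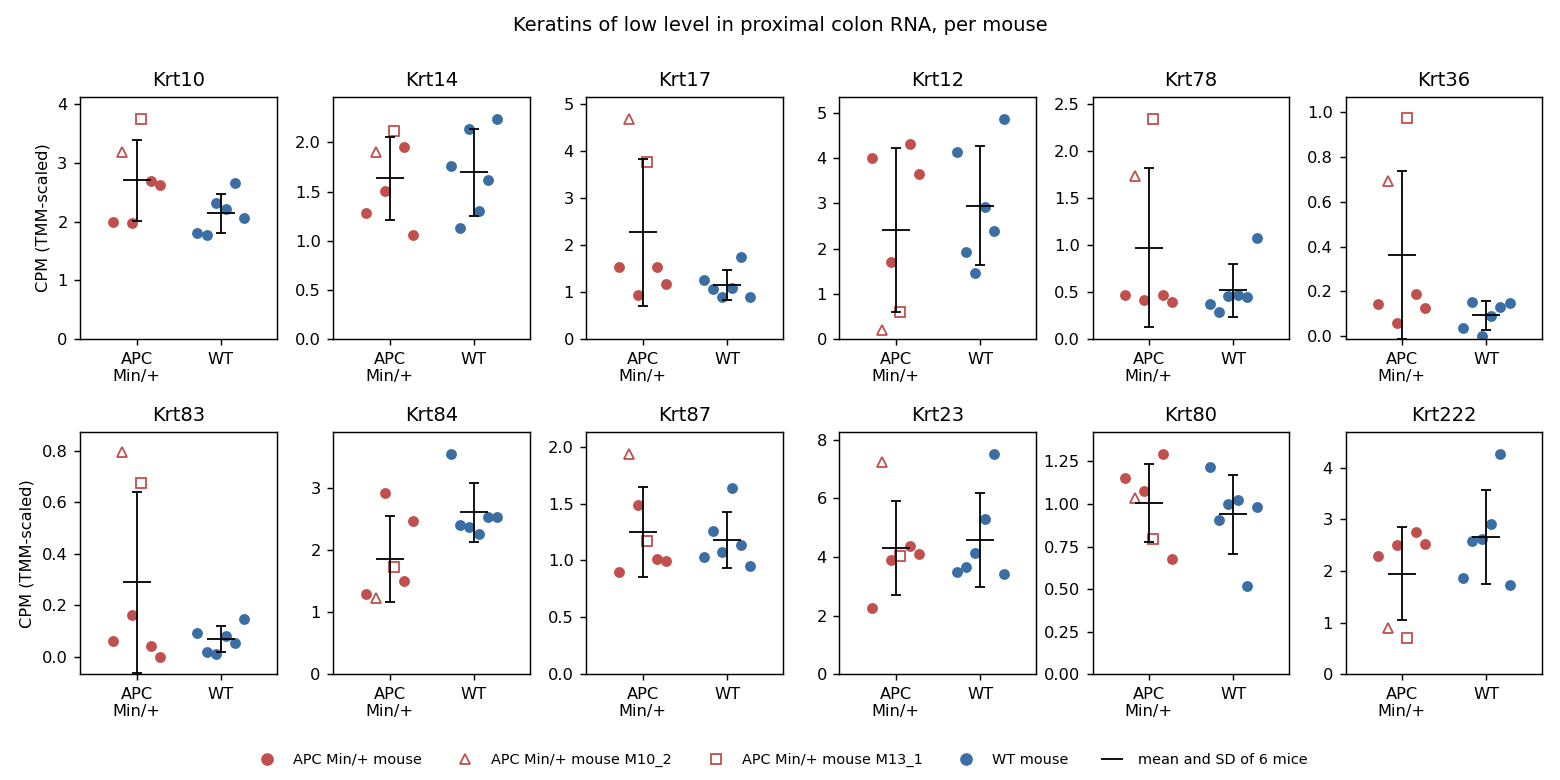
CPM of 12 low keratins in each mouse by genotype (linear axes); bars are the mean and SD of 6 mice and open symbols are the APC Min/+ mice M10_2 and M13_1. The open symbols are the 2 highest mice in Krt10, Krt17, Krt78, Krt36 and Krt83 and the 2 lowest in Krt12 and Krt222, and are not both at 1 end of the range in the remaining genes.

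The remaining keratins of at least 1 CPM did not follow those mice alone. *Krt84*, a type II keratin of hair, nail and tongue, had 1.23, 1.62 and 2.92 CPM as lowest, median and highest value in APC Min/+ mice and 2.26, 2.47 and 3.55 CPM in WT mice. Of the APC Min/+ mice 4 lay below every WT mouse and the others, M18_2b and M20_1, lay among them. Its log2 fold change was -0.49 (SE 0.23, unadjusted p = 0.0509, FDR = 0.908 in edgeR's quasi-likelihood test) and -0.35 (SE 0.24) without M10_2 and M13_1. *Krt87*, another hair keratin, had 0.898 to 1.93 CPM in APC Min/+ mice and 0.955 to 1.64 CPM in WT mice. *Krt23*, a type I keratin of glandular epithelia, had 2.26 to 7.23 and 3.43 to 7.51 CPM, and *Krt80*, a type II keratin of differentiating epithelia, had 0.677 to 1.29 and 0.516 to 1.21 CPM. The log2 fold changes of these 3 were 0.08 (SE 0.22), -0.09 (SE 0.27) and 0.10 (SE 0.22) with all mice, and -0.11 (SE 0.21), -0.33 (SE 0.26) and 0.17 (SE 0.25) without M10_2 and M13_1.

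**Figure D5:**
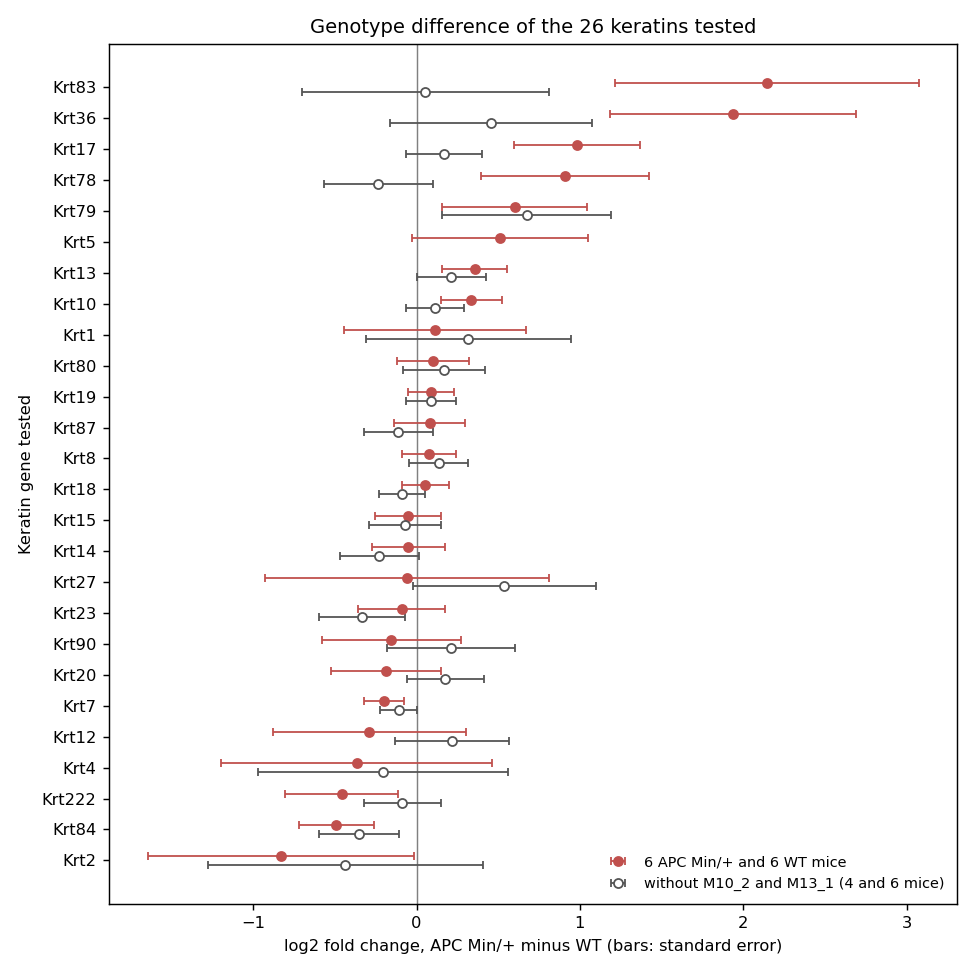
log2 fold change (APC Min/+ minus WT) with its standard error for the 26 keratins tested, from edgeR's quasi-likelihood fit with all 12 mice (filled) and without M10_2 and M13_1 (open; Krt5 fell below the count filter). The values furthest from 0 with all mice, 2.14 for Krt83 and 1.94 for Krt36, lie at 0.05 and 0.45 without both mice.

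The proteins that anchor keratins were read from lists set with earlier results known. Desmosomes tie keratin filaments to cell contacts. Of the 12 desmosome genes 9 were tested, 0 were called, 0 had an unadjusted p under 0.05, with all mice as well as without M10_2 and M13_1, and their median log2 fold change was 0.09 either way, against -0.01 over all genes tested. Among the desmosomal cadherins, the pair of simple epithelia was abundant and those of stratified epithelia were below 1 CPM. *Dsg2* had 624.7 ± 42.8 CPM in APC Min/+ mice and 599.7 ± 129.9 CPM in WT mice (SD, n = 6), and *Dsc2* had 302.1 ± 83.3 and 337.6 ± 48.2 CPM. *Dsg1a*, *Dsg3* and *Dsc1*, cadherins of the epidermis, averaged at most 0.0554 CPM in either genotype, and *Dsc3*, of basal layers, had 0.285 ± 0.267 and 0.168 ± 0.174 CPM, with its highest value of 0.817 CPM in M13_1. *Pkp1*, the plakophilin best known from stratified epithelia, was by contrast counted at 10.3 to 49.5 CPM in all mice, and M10_2 and M13_1 were its 2 highest mice. *Dsp*, the desmoplakin that binds keratins directly, had 693.4 ± 154.8 and 576.3 ± 189.3 CPM, with a log2 fold change of 0.27 (SE 0.25), and 0.18 (SE 0.28) without M10_2 and M13_1.

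Among 8 plakin and hemidesmosome genes, which link keratins to the cell base, 7 were tested and 0 had an unadjusted p under 0.05, also without M10_2 and M13_1, with a median log2 fold change of 0.22 with all mice and 0.13 without both. *Plec*, the cross-linker plectin, had a log2 fold change of 0.22 (SE 0.27), and 0.19 (SE 0.31) without both. Of 10 other filament genes 9 were tested, 0 were called and 2 had an unadjusted p under 0.05, both higher in APC Min/+ mice, where 5.27% of all genes tested had such a p. These were the muscle genes *Des* (log2 fold change 0.52, SE 0.15, unadjusted p = 0.0048, FDR = 0.908 in edgeR's quasi-likelihood test) and *Synm* (0.63, SE 0.26, unadjusted p = 0.0297, FDR = 0.908). Without M10_2 and M13_1 their log2 fold changes were 0.37 (SE 0.15, unadjusted p = 0.0320) and 0.35 (SE 0.25, unadjusted p = 0.187) in the same edgeR test. On the smooth muscle list, which holds both, 4 of 6 genes had an unadjusted p under 0.05 and were higher in APC Min/+ mice, against 5.27% of all genes tested, and 2 of 6 without M10_2 and M13_1, against 1.59% of all genes tested then. The median log2 fold change of the list was 0.43 with all mice and 0.32 without both, and the summed level was 3882 to 5864 CPM in APC Min/+ mice and 4007 to 5213 CPM in WT mice. The part of muscle content in the keratin values was not tested.

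Genes of the cornified envelope, the cross-linked layer that joins keratins in the upper epidermis, were read from a list set with earlier results known. The study had reported *Tgm3* and *Casp14*, both on this list, as higher in APC Min/+ mice. The shares below are therefore a description and no test of the list. Of 16 such genes 8 were tested and 0 were called, and 4 (*Tgm3*, *Scel*, *Csta1* and *Dmkn*) had an unadjusted p under 0.05, all higher in APC Min/+ mice, where 5.27% of all genes tested had such a p. Without M10_2 and M13_1 this was 0 of the 7 still tested, and the median log2 fold change was 0.41 in place of 1.05. Among members of that layer, *Ivl*, *Sprr2d* and *Sprr3* had no count in any mouse. *Lor* was at 0.0205 to 0.331 CPM, highest in M13_1 and M10_2, and *Tgm1* at 0.128 to 0.417 CPM. *Sprr1a* was at 0.838 and 1.92 CPM in M10_2 and M13_1 and at 6.06 to 83.2 CPM in the other 10. *Casp14*, a caspase of cornifying cells, had 36.8 and 47.3 CPM in M10_2 and M13_1 and at most 0.0535 CPM elsewhere. The summed list was 2346 CPM in M10_2 and 2134 CPM in M13_1, nearly all from *Tgm3*, a transglutaminase (2291 and 2064 CPM), and 11.1 to 86.0 CPM in the other 10 mice. The squamous epithelium list, by contrast, summed to 430.5 and 417.6 CPM in M10_2 and M13_1, below the 488.8 to 783.3 CPM of the others. This sum is mostly *Sfn*, *Perp*, *Serpinb5* and *Fgfbp1*, each at 39.4 CPM or more in every mouse. Over the 12 members these mice were the 2 lowest in *Fgfbp1* (57.0 and 49.8 CPM against at least 111.2) and the 2 highest in *Ly6d* (1.37 and 2.95 CPM against at most 1.36). *Trp63* was at 0.0909 and 0.0442 CPM, and *Dsc3* at 0.273 and 0.817 CPM against a median of 0.125 CPM in the others. The colonic epithelium list summed to 13130 and 13899 CPM against 27536 to 48716 CPM, mostly through *Car1*, while *Epcam* in these mice (1362 and 1284 CPM) lay within the range of the others (1239 to 1624 CPM) and *Cdx2* (49.9 and 20.6 CPM) lay below it (66.6 to 250.6 CPM). Over the 13 members of that list these mice were the 2 lowest in *Cdx2*, *Car1* and *Muc2* and the 2 highest in *Cdh1* and *Car4*. *Cdh1* had 1490 and 1199 CPM in M10_2 and M13_1 against at most 871.2 CPM elsewhere. *Car4* had 924.0 and 952.9 CPM against at most 582.1 CPM. The part of these differences in the keratin values was not tested.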

How the data were processed

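RNA from the proximal colonic mucosa of 6 APC Min/+ and 6 WT mice was sequenced by the study (paired-end reads). The authors used STAR (2.3.0, GRCm38.p2 per the labels) and featureCounts, and deposited for each mouse raw counts per gene with the gene length, in whole numbers that are not normalized. Whether strand was used in counting is not given in the sources used here, and reads shared by near copies cannot be assigned here. Symbols came from GENCODE M21 (37607 of 38924 identifiers matched) and promoter sequences from RefSeq (GRCm38.p6). Genotypes were compared on genes that reached 10 counts in 3 or more mice, with edgeR 4.0.16 (R 4.3.3), using TMM factors (0.906 to 1.10), the quasi-likelihood test and Benjamini-Hochberg adjustment, with no covariate. Standard errors are the fold change over the root of its F statistic. CPM was scaled by TMM factors and RPKM was computed from it and the deposited length. Correlations used 100000 resamples, or all orders with 6 mice. Near copies were searched with blastn 2.17.0 (at least 95% identity over 100 bp). The alternatives were DESeq2 1.42.0, edgeR's exact test, relative log expression factors, no filter on low counts, and fits without each mouse in turn or without M10_2 and M13_1. Tested on simulated data over 20311 genes for this comparison, the fit called 44 of 100 genes changed 2-fold, 100 of 100 changed 4-fold and 6 of 20111 unchanged genes. The simulation gave all genes the same spread between mice and changed only genes above a count minimum. Its calls used an FDR under 0.05 alone. The members, the keratin classes and the gene lists were chosen with earlier results of these data known. Keratins named are the simple keratins, those with a mean of at least 1 CPM in either genotype, the 10 tested keratins with the largest log2 fold change in size, and any called or without overlap. *Krt1* and *Krt81* are named as partner and near copy. The labels number no cage or shipment, and p-values measure the spread between these mice.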

Additional observations from a re-analysis of the deposited data

Results flagged for a closer look

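The values of each named keratin were searched within each genotype for a mouse whose gap to the next mouse, as a share of the range of the 6 mice, exceeds Dixon's critical value at the 95% level. In 42 such groups 3 were found, where chance gives about 1 in 20 groups. *Krt20* in WT mouse M18_b had 2564 CPM, against 984.6 to 1509 CPM in the other 5 WT mice. M18_b also had the highest *Krt8* and *Krt19* of all 12 mice, at 4769 and 2589 CPM. *Krt84* in WT mouse M17_2, the mouse with the lowest total count, had 3.55 CPM (190 counts), against 2.26 to 2.54 CPM in the other WT mice. *Krt78* in WT mouse M18_b had 1.08 CPM (88 counts), against 0.288 to 0.463 CPM in the other WT mice. The cause was not tested for any of the 3.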

How the results depend on the processing

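No keratin was called in any of the fits run. The count of all genes called moved from 0 to 12 with edgeR's exact test and to 27 with DESeq2, and was 0 in each fit without 1 mouse. The keratins with an unadjusted p under 0.05 were 3 in the edgeR quasi-likelihood fit, 0 to 5 in the fits without 1 mouse (0 without APC Min/+ mouse M10_2 or M13_1, 5 without APC Min/+ mouse M18_2b) and 0 without both M10_2 and M13_1. The share of all genes tested with such a p moved as well. It was 5.27% in the edgeR quasi-likelihood fit and 2.60% to 9.03% in the fits without 1 mouse. Without M10_2 it was 2.60%, without M13_1 2.97%, without M18_2b 6.68% and without both M10_2 and M13_1 1.59%. Of 353 log2 fold changes of the 21 named keratins under alternatives, 337 kept their direction. Without M10_2 and M13_1 the sign turned for *Krt12* (0.22), *Krt20* (0.18), *Krt87* (-0.11), *Krt78* (-0.24) and *Krt18* (-0.089). Across the fits without 1 mouse it also turned within the ranges -0.33 to 0.045 (*Krt20*), -0.30 to 0.11 (*Krt23*), -0.15 to 0.053 (*Krt14*), -0.027 to 0.19 (*Krt80*), -0.091 to 0.19 (*Krt87*), -0.0029 to 0.22 (*Krt8*) and -0.038 to 0.14 (*Krt18*). The cause was not tested.

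For *Krt8* with *Krt18*, r turned to 0.039 without M17_1 and M18_b and to 0.21 without these, M10_2 and M13_1, and was -0.33 to 0.11 without 1 mouse. For *Krt8* with *Krt19*, r was 0.74 in APC Min/+ mice alone, no longer past the threshold, and 0.91 to 0.98 without 1 mouse. For *Krt8* with *Krt20*, r no longer passed on total counts without TMM factors (0.46), without M17_1 and M18_b (0.52) and in APC Min/+ mice alone (0.78), and was 0.49 to 0.76 without 1 mouse, where 7 of 12 values did not pass. The ratio of type I to type II RPKM moved from 1.05 to 1.23 with the longest coding transcript as length, and was 1.04 to 1.06 without 1 mouse. The share of simple keratins was 99.65% to 99.67% without 1 mouse. The count of unadjusted p-values, the correlations without M10_2 and M13_1, the relation of *Krt12* with *Krt20* and the transcript length were added after seeing the data. The list values without M10_2 and M13_1 were also added after seeing the data. No paired analysis was possible because the labels give no replicate number, litter or shipment that ties a mouse of 1 genotype to a mouse of the other. Keratins under about 1 CPM rest on few counts. A change under 2-fold could not be called at the threshold used. The fit recovered fewer than 50 of 100 simulated 2-fold changes. The simulation gave all genes the same spread, so this count does not carry over to a single keratin.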
